A study of Homo sapiens with 8 samples.

Results

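The apelin receptor and its ligands are 3 genes, APLNR for the receptor, APLN for apelin and APELA for the second ligand, known as ELABELA or Toddler. They were found on the arrays as the probe sets annotated to exactly 1 of these symbols, which gave 4 probe sets: 213592_at for APLNR, 222856_at and 244166_at for APLN, and 1559280_a_at for APELA. All 3 genes were measured, of 19775 genes with such a probe set, and all 3 were among the 13647 tested. The receptor rose 45.7-fold between undifferentiated cells and sorted cells of day 4, and 45.1-fold up to day 8. APELA fell 34.0-fold up to day 4 and 97.3-fold up to day 8. No change of APLN between any of the days passed the test in the fit of group means over all 8 arrays. The change from day 0 to day 6 passed once a term for replicate number was added. It ran from 0.31 to 1.12 on the log2 scale with single arrays left out.

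The cells were H9, a long-established human embryonic stem cell line grown on inactivated mouse fibroblasts as feeders. The 4 groups, with 2 arrays each, were unsorted undifferentiated cells (day 0) and cells sorted for KDR and CD31 together after 4, 6 or 8 days in a serum-free haematopoietic medium that held BMP4. KDR is the main VEGF receptor, and CD31, encoded by PECAM1, is an adhesion molecule of endothelium. All groups come from 1 cell line, and the labels call the replicates biological without naming separate cultures, so p-values measure only the spread between these arrays. On 3 of the later arrays (replicate 2 of day 6 and both of day 8) the source name reads day 4, whereas title, description and stage give the later day, which was used.

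APLNR is a receptor that signals mainly through inhibitory G proteins and is then bound by arrestins. In embryos it is known from mesoderm and from developing, mainly venous, endothelium. APELA is known for its high level in human embryonic stem cells and for its role in the movement of mesoderm and endoderm cells in fish gastrulation. Apelin is made by endothelial cells at the tips of growing sprouts and is induced by low oxygen.

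The arrays showed the labelled states. NANOG, a core pluripotency factor, lay at log2 intensities of 11.99 and 12.00 at day 0 and between 6.39 and 6.68 on the 6 sorted arrays. The gate genes KDR and PECAM1 and the endothelial cadherin CDH5 were higher on every sorted array than at day 0, which for the gate genes the sort itself selects. The first principal component, with 70.3% of the variance, parted day 0 from the sorted arrays. On the second, with 16.6%, both replicate 1 arrays of days 4 and 6 lay far from the remaining 4 sorted arrays, and they are called the arrays that stood apart. On these arrays the 3' to 5' signal ratio of the ACTB control, a measure of RNA integrity, was 19.0 and 31.0, against 8.92 to 16.0 on the other 6. The GAPDH ratio did not part them in the same way, with 2.22 and 3.73 on these arrays and 1.71 to 3.41 on the others. Levels are given as log2(intensity + 32), called log2 intensity, and folds on that scale understate the change of dim genes. The median intensity of an array lay between 88.7 and 93.2.

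The receptor was dim at day 0 and bright in every sorted library. The APLNR probe set gave intensities of 150.4 and 149.9 in the day 0 pair, 8377 and 8197 in the day 4 pair, 6689 and 4942 in the day 6 pair, and 7602 and 8810 in the day 8 pair. The 6 sorted arrays all lay far above both day 0 arrays, and within the sorted arrays both of day 6 lay below both of day 4 and both of day 8. The log2 intensity was 7.51 on both day 0 arrays. Its mean was 13.02 ± 0.02 (SD, n = 2) for day 4, 12.50 ± 0.31 for day 6 and 13.00 ± 0.15 for day 8.

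Against day 0, APLNR rose by 5.51 ± 0.19 (SE) on the log2 scale at day 4, with a 95% interval of 5.05 to 5.97 and an adjusted p of 7.79e-06 in limma. It was higher by 4.99 at day 6 (adjusted p = 1.11e-05) and by 5.49 at day 8 (adjusted p = 8.54e-06), with the same day 0 arrays in each comparison. Of all genes tested, 8.52% were called higher for day 4, 9.73% for day 6 and 10.4% for day 8. At day 4, 13 genes had a larger rise than APLNR. As a ratio of mean intensities with no offset, the receptor was 55.2 times as bright in day 4 cells as at day 0, 38.7 times in day 6 cells and 54.6 times in day 8 cells. With the largest offset tried, the log2 change at day 4 was 4.92. Without replicate 1 of both day 4 and day 6, the log2 change was 5.50 at day 4 and 4.77 at day 6. Because day 0 was not sorted, day and sort cannot be told apart in any comparison with day 0, nor, in bulk RNA, can more cells with the receptor from more RNA per cell.

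Within the sorted gate the receptor level was nearly flat. Day 6 differed from day 4 by -0.52 ± 0.19 (SE) on the log2 scale (95% interval -0.98 to -0.07, unadjusted p = 0.0307, adjusted p = 0.914 in limma), and day 8 from day 6 by 0.51 ± 0.19 (adjusted p = 0.955). Day 8 differed from day 4 by -0.02, with an interval of -0.48 to 0.44. The order of levels was day 4, day 8, day 6, day 0, and no neighbours among the sorted days passed the test. In these 3 comparisons 0.00% of the genes tested were called, while 722, 338 and 887 had an unadjusted p under 0.05, in the order day 6 over 4, day 8 over 6 and day 8 over 4.

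**Figure D1:**
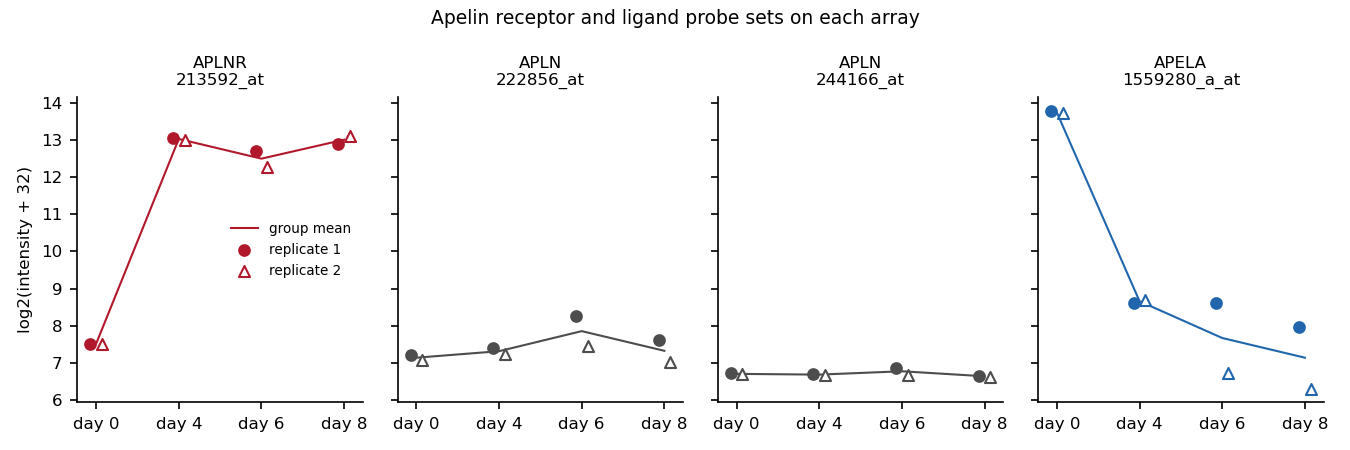
Log2(intensity + 32) of the 4 probe sets on each of 8 arrays by day. Filled circles are replicate 1, open triangles replicate 2, and the line joins the means of 2 arrays. APLNR is at 7.51 at day 0 and between 12.28 and 13.11 later, APELA starts at 13.77 and 13.71 and reaches 6.31, and both APLN probe sets stay between 6.63 and 8.26.

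The ligand APELA followed the opposite course. Its intensities were 13980 and 13400 in the day 0 pair, 360.9 and 383.3 in the day 4 pair, 359.8 and 73.82 in the day 6 pair, and 219.4 and 47.13 in the day 8 pair. No sorted array came near the day 0 arrays, and the lowest values, those of replicate 2 at day 6 and at day 8, lay below the median of their array. The mean log2 intensity was 13.74 ± 0.04 (SD, n = 2) for day 0, 8.66 ± 0.06 for day 4, 7.67 ± 1.34 for day 6 and 7.14 ± 1.18 for day 8. It fell by 5.09 ± 0.70 (SE) at day 4 (95% interval -6.74 to -3.43, adjusted p = 0.00326 in limma), by 6.07 at day 6 (adjusted p = 0.00131) and by 6.60 at day 8 (adjusted p = 0.000913). Of all genes tested, 9.91%, 13.6% and 14.1% were called lower in these comparisons. In ratios of mean intensity with no offset, day 0 was 36.8 times as bright as day 4, 63.1 times as day 6 and 103 times as day 8.

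Few genes fell further. At day 4, 12 genes had a larger fall, and at day 6 only L1TD1, an RNA-binding protein of undifferentiated cells, and SOX2, a core pluripotency factor, did. At day 8 the single gene was MIR302B, for which no value is given because its probe set was not matched to the mature microRNA. These 3 names were read off after their values were seen.

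Among the sorted days the APELA means descended from day 4 to day 8, and no step passed the test. Day 8 differed from day 4 by -1.52 ± 0.70 (SE), with an interval of -3.18 to 0.14 and an adjusted p of 0.724 in limma. Day 6 differed from day 4 by -0.99 (interval -2.65 to 0.67) and day 8 from day 6 by -0.53 (interval -2.19 to 1.13). The last difference was 0.41 without replicate 1 of day 6 and 0.30 without replicate 2 of day 8, so its direction rests on single arrays. The replicates themselves lay far apart at the later days. Replicate 1 was 4.87 times as bright as replicate 2 at day 6 and 4.65 times at day 8, where only 1.38% and 0.330% of the genes tested had a larger gap. At day 4 the ratio was 0.942 and at day 0 it was 1.04.

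Markers of undifferentiated cells were read beside APELA. All 9 of 9 measured markers, among them NANOG, USP44, ZFP42 and L1TD1, fell on each sorted day, with a median change of -2.79 at day 4 against 0.02 for all genes tested (8 of 9 without either day 0 array). Their summed intensity was 57650 and 55184 at day 0, and between 6102 and 10187 on the sorted arrays, where 4 to 6 of the 9 lay above the array median. At day 6 the sum was 7660 in replicate 1 and 6782 in replicate 2, and at day 8 it was 7359 and 6102. The brightest members, LIN28A and DNMT3B, weigh most in these sums. SOX2 had log2 intensities of 6.90 and 6.39 in the day 6 pair and of 9.31 and 6.14 in the day 8 pair. Like APELA and the sum, it was higher in replicate 1 on both days. Between the replicates, 5 of the 9 were higher in replicate 1 at day 6 and 4 of the 9 at day 8. Stromal and smooth muscle markers were mixed. Their summed intensity was 37345 and 37214 at day 0 and between 11411 and 24345 later, a smaller drop than that of APELA. COL1A1 and COL1A2 weigh most in the day 0 sums. Of the 9, 5 fell at day 4, where 9.91% of all genes tested were called lower. Fewer fell without either day 0 or either day 4 array, fits that called fewer of all genes tested. COL3A1 and DCN had higher mean log2 intensities at day 4 (13.19 and 7.46) than at day 0 (12.29 and 7.05), without a call. Among the sorted days, the replicates parted in the sum as in APELA only at day 6 (20585 and 11411). The day 4 sums were 24345 and 15192, and those of day 8 were 12725 and 12790. The part of these markers in the APELA result was not tested.

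APLN, the first known ligand, stayed dim. Its brighter probe set gave intensities of 114.9 and 103.7 in the day 0 pair, 137.1 and 118.2 in the day 4 pair, 274.5 and 143.4 in the day 6 pair, and 164.6 and 98.56 in the day 8 pair. All 8 values exceeded the median of their array. Day 8 overlapped day 0, days 4 and 6 lay above it, and the highest value was that of replicate 1 at day 6. The mean log2 intensity was 7.14 ± 0.08 (SD, n = 2) for day 0, 7.32 ± 0.12 for day 4, 7.86 ± 0.57 for day 6 and 7.32 ± 0.42 for day 8. The change from day 0 was 0.17 ± 0.29 (SE) at day 4, with an interval of -0.52 to 0.87, and 0.18 at day 8, with an interval of -0.51 to 0.88. These intervals leave room for a change of up to 1.83-fold and 1.84-fold upward.

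At day 6 the APLN difference from day 0 was 0.72 ± 0.29 (SE), with an interval of 0.02 to 1.41, an unadjusted p of 0.0455 and an adjusted p of 0.131 in limma. Without replicate 2 of day 6 it was 1.12 with an adjusted p of 0.0284, and without replicate 1 of that day it was 0.31 with an adjusted p of 0.401. With a term for replicate number added, the difference stayed 0.72 and passed (SE 0.19, adjusted p = 0.0356 in limma). Replicate 1 of day 6 is an array that stood apart and had the highest ACTB ratio, 31.0. Whether this bears on the APLN value was not tested. The second APLN probe set lay below the array median on all 8 arrays, from 66.85 at day 8 to 85.25 on replicate 1 of day 6. In a fit over all 41091 probe sets with 1 symbol, its changes ran from -0.14 to 0.09 on the log2 scale and none passed. Both probe sets had their highest value on the same array.

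**Figure D2:**
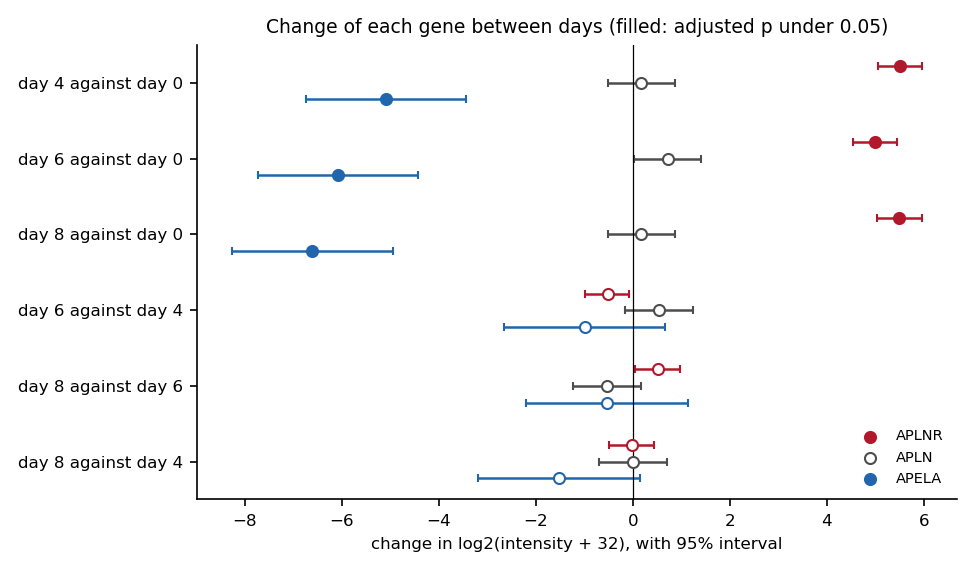
Change in log2(intensity + 32) of APLNR, APLN and APELA in 6 comparisons, with 95% intervals from the limma fit on 8 arrays (2 per group). Filled points passed an adjusted p of 0.05 and open points did not. APLNR lies between 4.99 and 5.51 against day 0, APELA between -6.60 and -5.09, and no point of the comparisons among sorted days is filled.

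The ligand promoters are shown because both ligands respond to the state of the cell in known settings, APLN to low oxygen and APELA to pluripotency, and hypoxia factors are among the genes read below. These are the 250 bases before the gene start from RefSeq, build GRCh38.p14, and 2 of the 3 members had an entry. APELA is from chr4:164876928-164877177, plus strand, and APLN from chrX:129654957-129655206, minus strand, each written 5′ to 3′ in the direction of the gene. Capitals mark the hypoxia core ACGTG or GCGTG and the ETS-type motifs AGGAAG or CCGGAA, searched on both strands. No match overlaps another.
APELA: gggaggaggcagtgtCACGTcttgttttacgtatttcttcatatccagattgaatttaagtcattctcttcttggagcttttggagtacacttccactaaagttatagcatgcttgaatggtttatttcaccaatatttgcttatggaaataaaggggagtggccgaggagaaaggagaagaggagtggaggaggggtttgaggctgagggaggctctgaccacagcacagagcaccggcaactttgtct
APLN: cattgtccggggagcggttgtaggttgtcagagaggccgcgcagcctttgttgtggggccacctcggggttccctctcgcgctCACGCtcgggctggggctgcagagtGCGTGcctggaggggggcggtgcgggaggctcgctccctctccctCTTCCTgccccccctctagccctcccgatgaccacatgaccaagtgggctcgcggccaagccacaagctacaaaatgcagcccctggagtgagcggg
APLN held GCGTG at 167 and 142 bases before the start, the former on the reverse strand, and AGGAAG on the reverse strand at 97 bases. APELA held ACGTG on the reverse strand at 235 bases and neither ETS-type motif. Of 27305 promoters of this length, 43.1% held either hypoxia core, 28.7% AGGAAG and 14.8% CCGGAA. The matches are a description of these letters.

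The genes most like each member were sought by the root mean square difference between profiles centred on their own mean over 8 arrays, among 13646 other genes. The profile of APLNR lay closest to CALCRL, the receptor of adrenomedullin and calcitonin gene-related peptide, with a difference of 0.23 on the log2 scale against a median of 2.33 over all genes. Next came ICAM2, an adhesion molecule of endothelium (0.29), MYCT1 (0.29), ECSCR, an endothelial surface protein (0.32), and SHE, an adaptor protein (0.37). CALCRL had log2 intensities of 6.06 and 6.05 at day 0 and between 11.18 and 11.52 afterwards. ICAM2 was at 7.77 and 7.24 at day 0 and between 12.48 and 13.21 afterwards.

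The profile of APELA lay closest to that of MIR302B, then to L1TD1 (0.63 against a median of 2.69), CFAP95 (0.68), ESRP1, an epithelial splicing factor (0.71), and MAP7, a microtubule protein (0.71). L1TD1 had log2 intensities of 13.15 and 13.06 at day 0 and between 6.37 and 7.28 on the sorted arrays. For APLN, whose profile is nearly flat, the closest genes were ZNF112 (0.11 against a median of 0.46), IDE, the insulin-degrading protease (0.12), the integrin subunit ITGAV (0.13), the zinc transporter SLC30A7 (0.13) and the kinase MAPK8 (0.14). All 5 had their highest value on replicate 1 of day 6, as APLN had, which their choice by likeness to APLN favours. ITGAV, for example, was at 13.27 on that array and between 12.13 and 12.76 on the other 7.

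**Figure D3:**
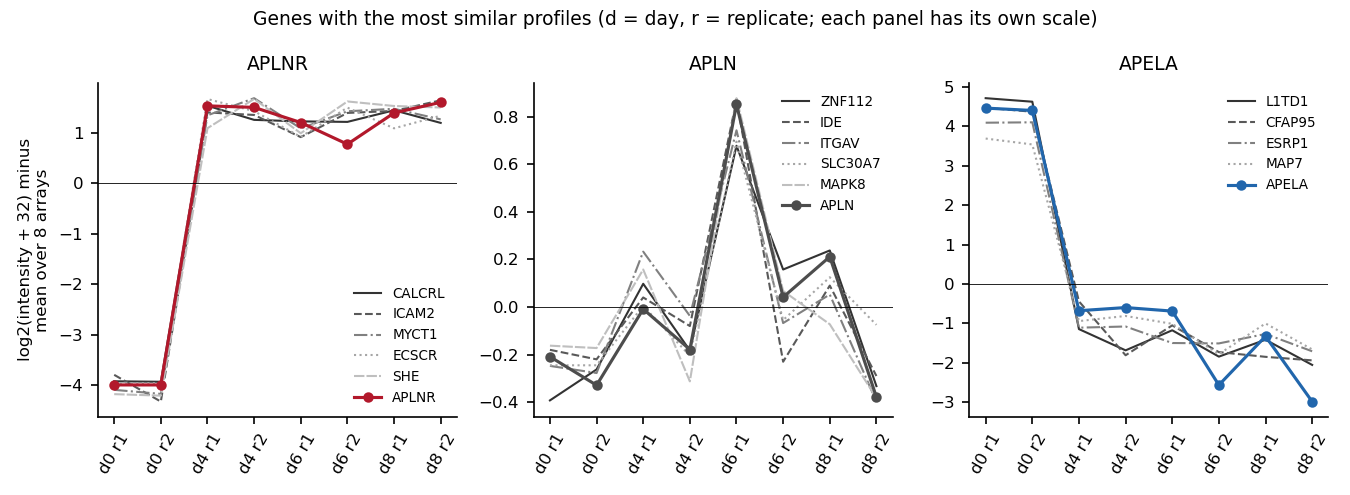
Log2(intensity + 32) minus its mean over 8 arrays for each member (coloured, with points) and the genes with the most similar profile (grey), 1 panel per member with its own vertical scale. APLNR and its neighbours step up once between day 0 and day 4, APELA and its neighbours step down, and APLN and its neighbours share a peak on replicate 1 of day 6. MIR302B is not drawn.

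Enzymes that mature or degrade the peptides were called about as often as other genes. KLKB1, plasma kallikrein, a protease that cleaves apelin, fell 3.24-fold at day 4 (adjusted p = 0.000444 in limma), from log2 intensities of 8.24 and 8.55 to 6.75 and 6.65, and it was the only 1 of 6 tested genes of the list to pass there, where 18.4% of all genes tested did. FURIN, the convertase that matures both propeptides, was at 7.99 and 7.70 at day 0 and at 8.30 and 8.74 at day 4 (adjusted p = 0.0816). MME, or neprilysin, which degrades apelin, was at 7.98 and 8.19 at day 0 and between 6.87 and 7.81 later, with a difference of -0.68 at day 4 (adjusted p = 0.241). PCSK5, a related convertase, was the only further gene past the test at day 8 (0.60, adjusted p = 0.041), where 24.5% of all genes tested were called, and that call ended without either day 0 array or either day 8 array.

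Among G proteins, arrestins and receptor kinases, 4 of 14 tested genes rose and 1 fell at day 4 (all genes tested: 8.52% higher, 9.91% lower), with a median change of 0.31 against 0.02 for all genes tested. ARRB1, the arrestin that binds activated receptors, rose 6.99-fold, from 8.89 and 8.64 at day 0 to 11.22 and 11.91 at day 4 (adjusted p = 0.000668 in limma). GNAI1, an inhibitory alpha subunit through which the receptor signals, rose 3.14-fold, from 10.35 and 10.32 to 12.15 and 11.81. The beta subunit GNB2 rose 2.23-fold and the receptor kinase GRK5 rose 5.07-fold, while GRK3, another receptor kinase, fell 3.44-fold (adjusted p = 0.00825, 0.0155 and 0.00967 in that order). The other inhibitory subunits GNAI2 and GNAI3 did not pass at day 4, with GNAI2 at 10.74 and 11.54 against 10.17 and 9.98. On days 6 and 8, 5 rose and GRK3 fell, where 23.4% and 24.5% of all genes tested were called. Without either day 0 array fewer rose on these days and GRK3 did not pass, and fewer of all genes tested were called. At day 4 the calls of GNB2, GRK3 and GRK5 also ended without either day 0 array. Without replicate 2 of day 4 that of GRK5 ended as well. Without both arrays that stood apart more rose at day 4, in a fit that called more of all genes tested.

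Of 14 effectors and downstream factors, 7 rose and 2 fell at day 4, where 8.52% of all genes tested were called higher and 9.91% lower, with a median change of 0.57. MEF2C, a transcription factor that apelin signalling is known to act on through class II histone deacetylases, rose 27.2-fold, from 7.57 and 7.54 to 12.19 and 12.46 (adjusted p = 1.71e-05 in limma). KLF2, a flow-responsive factor of endothelium, rose 8.61-fold and was at 12.07 ± 0.61 (SD, n = 2) at day 4, 11.33 ± 0.24 at day 6 and 11.22 ± 0.43 at day 8. NOS3, endothelial nitric oxide synthase, rose 3.58-fold from 6.79 and 6.88 to 8.73 and 8.63, a call that ended without either day 0 array (adjusted p = 0.0773 and 0.0665). FGF2, a growth factor of stem cells and endothelium, fell 4.98-fold, from 9.95 and 9.85 to 7.57 and 7.60. Fewer were called at day 4 without either day 0, either day 4 or either day 8 array. The same held for all genes tested. Of the remaining calls AKT1, HDAC5, MEF2A and MEF2D rose by 0.64 to 0.97 on the log2 scale and PRKAA2, a catalytic subunit of AMP kinase, fell by 1.46.

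Related peptide receptors and hypoxia factors were less well measured. Of 8 receptors 4 were tested, and AGTR1, an angiotensin receptor that APLNR resembles in sequence, was too dim to be tested. CXCR4, a chemokine receptor, was at 8.96 and 8.83 at day 0 and at 11.11, 13.10, 10.58, 13.51, 13.60 and 12.89 on the sorted arrays in order of day and replicate. All 6 sorted values lay above both day 0 values. It passed the test at day 8 (20.4-fold, adjusted p = 0.0203 in limma) and missed it at day 4 (9.26-fold, 0.069) and day 6 (8.90-fold, 0.0611), and whether the days differ in this was not shown. The day 8 call did not hold without either day 0 or either day 8 array. Its values on the arrays that stood apart were the lowest of the sorted arrays. None of the 4 receptors passed at day 4. Some did without either day 6 array or without both arrays that stood apart, fits that called more of all genes tested. Of 5 tested hypoxia factors EGLN1, an oxygen sensor that marks HIF for breakdown, rose 2.70-fold at day 4, 3.44-fold at day 6 and 2.64-fold at day 8. It was the only hypoxia factor called at day 4, where 18.4% of all genes tested were called. More of these factors were called there without either day 4 array, in fits that called fewer of all genes tested. More were also called there without both arrays that stood apart, in a fit that called more of all genes tested. HIF1A, the oxygen-regulated factor itself, was at 13.28 and 13.27 at day 0 and between 13.48 and 13.74 later. Its differences of 0.28, 0.40 and 0.25 did not pass. For EPAS1, of the same list, day 0 gave 8.64 and 8.80. The arrays that stood apart stayed near this, at 8.73 (day 4) and 8.81 (day 6). Replicate 2 of days 4 and 6 reached 11.47 and 11.95, and the day 8 pair 11.02 and 11.18. No EPAS1 change from day 0 passed (adjusted p = 0.47, 0.351 and 0.174 in limma). EGLN3 had means of 8.81, 7.40, 8.47 and 7.34 from day 0 to day 8. Its change of -1.42 at day 4 did not pass (adjusted p = 0.0838).

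**Figure D4:**
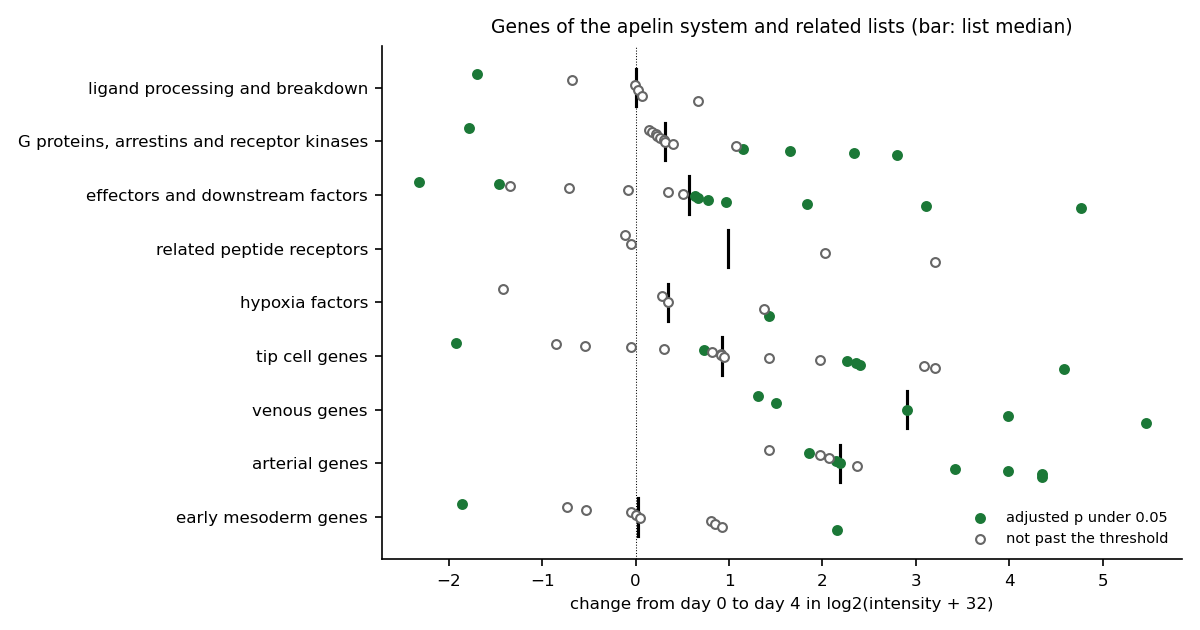
Change from day 0 to day 4 in log2(intensity + 32) for the tested genes of 9 lists, 1 point per gene, with a bar at each list's median. Filled points passed an adjusted p of 0.05. All 5 venous genes lie to the right with a median of 2.91, ligand processing genes centre on 0.01 and early mesoderm genes on 0.02.

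Vessel identity genes were read beside the receptor and its ligands. Of the venous list all 5 tested genes rose on each sorted day, where 8.52%, 9.73% and 10.4% of all genes tested were called higher. Fewer did with some single arrays left out. TEK and EMCN of this list are also on the list of endothelial markers, so their rise is not particular to veins. TEK, the angiopoietin receptor, rose 15.8-fold at day 4, EMCN, a sialomucin, 43.9-fold, NRP2, a coreceptor, 7.52-fold and EPHB4, the venous ephrin receptor, 2.83-fold (adjusted p = 0.00461 in limma, and 0.0552 without replicate 2 of day 0). Of 11 arterial genes 7 rose by day 4, 9 by day 6 and 10 by day 8, while the share of all genes called higher grew as just given. At day 4 the factor SOX17 rose 15.9-fold, the Notch targets HEY1 and HEY2 rose 10.7-fold and 4.43-fold, and the connexin GJA4 rose 20.4-fold. GJA4 no longer passed with replicate 2 of day 0 left out (adjusted p = 0.0503), nor did HEY2 with replicate 1 of day 0 left out (0.0531). Fewer arterial genes were called at day 4 without either day 0 array, without replicate 2 of day 4 or without either day 8 array. More were called without either day 6 array or both arrays that stood apart. On day 8 fewer were called without a day 0 or a day 8 array. The count of all genes called moved the same way in each of these fits. It did not without replicate 1 of day 4, where more arterial genes but fewer of all genes tested were called at day 4.

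Of 18 tip cell genes, the class of cells in which apelin is known to be made, 5 rose and 1 fell at day 4, beside 8.52% and 9.91% of all genes tested. NID1 and NID2, basement membrane proteins, rose 4.81-fold and 5.28-fold, and ADM, a vasoactive peptide, fell 3.79-fold, whereas KDR belongs to the gate. The NID2 call ended without either day 0 array and the ADM call also without replicate 1 of day 4. ESM1, a marker of these cells, had levels of 6.80 and 11.45 in the day 4 pair and of 6.08 and 5.99 in the day 0 pair. It did not pass in that comparison (adjusted p = 0.229 in limma). The level of 6.80 was that of replicate 1, an array that stood apart. At days 6 and 8 ESM1 lay between 9.06 and 11.76. Fewer tip cell genes were called at day 4 without either day 0, either day 4 or either day 8 array. More were called without either day 6 array or without both arrays that stood apart. The count of all genes called at day 4 moved in the same direction in each of these fits.

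Early mesoderm is a stage at which APLNR is known to be made. Of 10 tested genes of that stage 2 were called at day 4, a share near the 18.4% of all genes tested. GATA4 rose 4.47-fold at day 4 (adjusted p = 0.0206 in limma, and 0.107 and 0.123 without a day 0 array) and EOMES fell 3.63-fold. TBXT, the brachyury gene, was between 7.65 and 7.99 on all 8 arrays, and MIXL1 was too dim to be tested. PDGFRA, a receptor of paraxial and lateral mesoderm, was at 11.24 and 9.84 at day 4 and at 9.49 and 8.99 at day 8, against 10.58 and 10.60 at day 0. Without both arrays that stood apart more of these genes fell at day 4, in a fit that called more of all genes tested.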

How the data were processed

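Values were read from 1 table with a row per probe set and a column per array for 8 arrays. Per the submitters' processing notes the authors used MAS5, whose version is not given in the sources used here. Deposited by the authors were intensity values on a linear scale, with no stated scaling. No detection calls were used.

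Probe sets with exactly 1 symbol numbered 41091 of 54675. Gene IDs of 41037 were found in the RefSeq table, which changed 0 symbols. The brightest probe set on average stood for its gene, with _x_at probe sets as a last choice. Genes above the median of the non-control probe sets on at least 2 of 8 arrays were tested, and the same genes were used when arrays were left out.

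Tests used limma (version 3.58.1, R 4.3.3) on log2(intensity + 32), fitted once over 8 arrays with group means, trended eBayes and p-values adjusted by Benjamini-Hochberg over 13647 genes, called at 0.05, two-sided (4 residual and 2.84 prior degrees of freedom). The fit was tested on simulated data. Figures used Python 3.11.15 and matplotlib 3.10.9. With 2 arrays per group the number of arrays limits the precision. Alternatives were a smaller and a larger offset, no filter or a stricter one at the upper quartile, quantile normalization or median centring, averaging or splitting a gene's probe sets, eBayes without trend, only the arrays compared, a replicate block, and each array left out. Fits without both arrays that stood apart, and on the 6 sorted arrays, were chosen after seeing the data.

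Named were the 3 genes, the 5 genes nearest each in profile, and, of each list, up to 4 called members with the smallest adjusted p at day 4 (none passed from day 4 to day 8), and KDR, PECAM1, CDH5 and NANOG. Other list members, such as GRK5, CXCR4, FURIN, MME, PCSK5, GNAI2, HIF1A, EPAS1, EGLN3, ESM1, TBXT, PDGFRA, COL3A1 and HBE1, were named after their values were seen. The members and lists were chosen with earlier results of these data known. Lists for blood and for endoderm were also read, of which 3 of 7 and 1 of 4 tested markers rose at day 8. Of 12 endothelial markers, 10 rose at each sorted day. The share of all genes tested that were called higher was 8.52% at day 4, 9.73% at day 6 and 10.4% at day 8.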

Additional observations from a re-analysis of the deposited data

How the results depend on the processing

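The rises of APLNR and the falls of APELA against day 0 kept direction and call under all 20 alternatives run for each, with log2 changes of APLNR from 4.40 to 5.78 and of APELA from -7.44 to -4.79. The largest adjusted p of APELA was 0.0299, at day 4 without replicate 1 of day 0. With the smallest offset the APELA change at day 8 was -7.05 and with the largest -5.81. APLN could not be tested with the filter at the upper quartile, where it was too dim. Its change at day 6 against day 0 passed with a replicate block (0.72, adjusted p = 0.0356), which changed no other call of these 3 genes, and ran from 0.31 to 1.12 with single arrays left out. The numbers were not taken to pair the arrays: replicate differences correlated across genes at -0.02 to 0.02 between day 0 and each sorted day, and at 0.19 to 0.60 among sorted days. Within the sorted days every pair thus exceeded 0.1, and there the block changed no call.

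Changes near 0 turned sign. From day 4 to day 8, APLNR was 0.15 with quantile normalization and from -0.12 to 0.09 with single arrays left out, and APLN was -0.02 with quantile normalization, -0.01 with median centring, -0.02 with the mean of all probe sets and -0.29 to 0.30 with single arrays left out. From day 0 to day 8 APLN ran from -0.11 to 0.48 with single arrays left out. From day 6 to day 8 APELA ran from -1.47 to 0.41 with single arrays left out, and was 0.41 without both arrays that stood apart.

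The count of changed genes moved most. Against day 0 it was 2516, 3187 and 3345 at day 4, 6 and 8. With every probe set on its own, which tests more features, it was 4160, 5148 and 5334. Without both arrays that stood apart it was 4764, 6096 and 6781, and at day 8 it was 6784 with only the arrays compared. With single arrays left out it ran from 991 to 3142, 1205 to 3591 and 1217 to 4360, lowest without replicate 1 of day 0. Among sorted days it was 0, and with single arrays left out 0 to 1 from day 4 to day 6, 0 to 8 from day 6 to day 8 and 0 to 3 from day 4 to day 8, or 21 for the last without both arrays that stood apart. The causes were not tested. Dim probe sets, such as APLN and late APELA, limit what these arrays can show.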

Other observations

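Outside the apelin system, the summed intensity of 9 measured blood markers was highest in the day 8 cells. It was 822 and 791 in the day 0 pair and 969 and 974 in the day 4 pair. In the day 6 pair it was 851 and 5206, and in the day 8 pair 11957 and 7835. HBE1, a globin gene, weighs most in this sum at day 8, at log2 intensities of 13.13 and 12.66 against 7.11 and 6.84 at day 0. PTPRC, SPI1 and SPN stayed between 5.70 and 7.04 on all 8 arrays. Of 7 tested, 0 passed at day 4 and 3 rose at day 8, where 10.4% of all genes tested were called higher. A call at day 4 came without either day 6 array, where more of all genes tested were called. The day 8 calls ended without either day 0 array or without replicate 1 of day 8, where fewer of all genes tested were called. The list of definitive and yolk sac endoderm markers summed to 984 and 1016 in the day 0 pair, 2914 and 21295 in the day 4 pair, 656 and 6520 in the day 6 pair, and 12635 and 9604 in the day 8 pair. That sum follows AFP, APOA2, APOB and TTR, while APOA1, FOXA1 and FOXA2 stayed between 5.97 and 6.82 on the log2 scale on all 8 arrays. None of the 4 tested passed at day 4, but some rose without replicate 1 of day 4, without either day 6 array or without both arrays that stood apart. Without either day 6 array or both arrays that stood apart, more of all genes tested were called as well. On both lists replicate 1 of day 6 was far below replicate 2, whereas APELA and APLN were higher on replicate 1 of that day.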
